A study of Homo sapiens with 31 samples.

Results

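This account covers 6 of 31 RNA libraries from MCF10A, a human line of breast epithelium that is not transformed: the 3 labelled as palbociclib at 9 h after release and the 3 labelled as DMSO at 6 h. They were chosen by their labels alone, and every gene measured in them was eligible. Cells in both groups had first been starved of serum, EGF and insulin for 2 to 3 days, with hydrocortisone and cholera toxin kept in the medium. They were then released into full medium containing horse serum, EGF, insulin, hydrocortisone and cholera toxin. In the palbociclib group that medium held 1 µM palbociclib, an inhibitor of the kinases CDK4 and CDK6, for 9 h, and in the DMSO group it held the vehicle for 6 h. Drug and time therefore differ together, and for each gene the 3 DMSO libraries at 9 h are set beside the other 6 so that the same hours without the drug can be read next to them. All groups come from a single cell line. Whether replicates are separate cultures is not stated, so the p-values reflect library-to-library spread alone, which may be technical.

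In G1, the cell cycle phase before DNA replication, D-type cyclins activate CDK4 and CDK6, which phosphorylate the retinoblastoma protein and its relatives p107 and p130. Phosphorylation frees the E2F transcription factors, which drive the genes of DNA replication and S phase entry. Growth factors also start programmes that run beside this pathway, among them immediate early transcription, ribosome and protein synthesis, sterol synthesis, and changes of adhesion and matrix. Comparing 9 h under CDK4/6 inhibition with 6 h in vehicle asks what goes on moving through G1 when that kinase step is blocked.

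Of 15787 genes tested, 3126 (19.8%) were higher and 2892 (18.3%) lower, 38.1% in all, at 9 h with palbociclib than at 6 h with DMSO (edgeR quasi-likelihood test, Benjamini-Hochberg adjusted p below 0.05). At least 2-fold changes were fewer, at 226 genes higher (1.43%) and 519 lower (3.29%). Library values of the palbociclib 9 h and DMSO 6 h groups did not overlap for 7550 genes (47.8%), which were all above in 3779 (23.9%) and all below in 3771 (23.9%). In DMSO alone, 2863 genes (18.1%) were higher and 2623 (16.6%) lower at 9 h than at 6 h. Between the drug and vehicle at 9 h, 18 genes (0.114%) were higher and 170 (1.08%) lower, 1.19% in all, and that contrast is also the test of whether the steps taken from DMSO 6 h differ. These 3 contrasts share libraries, so their values are given side by side and not as independent results. The median log2 difference over all tested genes was −0.02 in the main comparison, and log2 differences throughout are palbociclib 9 h over DMSO 6 h, with their standard error (SE), unless another pair is named. A gene is said to have risen or fallen by its log2 difference where it passed the test.

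**Figure D1:**
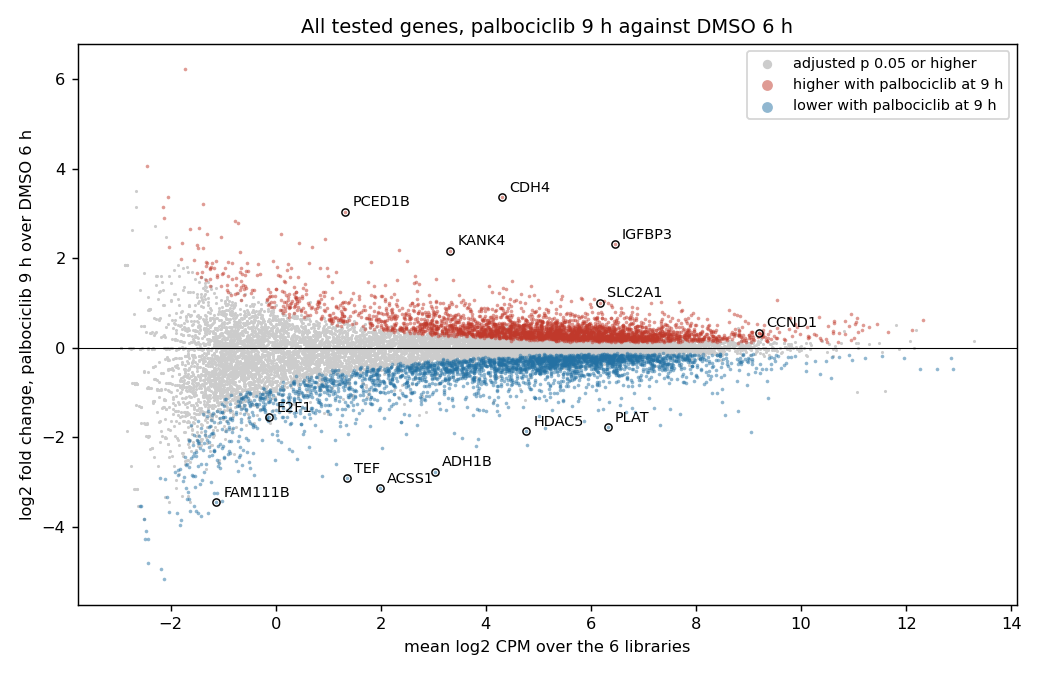
Each point is 1 of the 15787 tested genes, with the mean log2 CPM over the 6 libraries on the x axis and the log2 fold change, palbociclib 9 h over DMSO 6 h, on the y axis. Red points (3126 genes) passed the test as higher and blue points (2892) as lower, and most of both lie within 1 log2 unit of 0.

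Libraries held 13190082, 19615215 and 14675009 counts in the palbociclib 9 h group and 12509798, 20878364 and 12588490 in the DMSO 6 h group, within 10342358 to 20878364 over all 31. Levels are given as CPM, counts divided by TMM-adjusted library totals, so each is a share of its library. On the main axis of variation within groups, which held 27.5% of that variance, DMSO 6 h replicate 2 scored 24.8 against −7.42 and −17.4 for the others of its group, and without it 3051 genes were higher and 2608 lower. Basal breast markers summed to 18610 to 18930 CPM with palbociclib at 9 h and 18365 to 18695 CPM with DMSO at 6 h, while luminal markers summed to 889 to 894 CPM with palbociclib at 9 h and 1023 to 1059 CPM with DMSO at 6 h. KRT5 summed to 136912 counts with palbociclib at 9 h and 145255 with DMSO at 6 h, and KRT14 to 11019 and 7660. Luminal markers were not all low. In the same order KRT8 held 17192 and 17825 counts, KRT18 10135 and 9747 and MUC1 13392 and 18449. KRT19, PGR and ELF5 held 0 to 5 counts per group. Mesenchymal markers summed to 1171 to 1212 CPM with palbociclib at 9 h and 990 to 992 CPM with DMSO at 6 h, and blood and endothelial markers to 15.5 to 19 CPM with palbociclib at 9 h and 20.9 to 27.1 CPM with DMSO at 6 h. HBB and COL3A1 were at 0 counts in all 6, while CD14, of the blood list, held 775 counts with palbociclib and 1067 with DMSO. The part of such markers in the results below was not tested, and in such bulk samples fewer cells of a kind and less RNA per cell cannot be told apart.

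The replication genes driven by E2F stood close to their DMSO 6 h level at 9 h with palbociclib, with members on both sides of it. Of 64 tested E2F G1/S genes, 14 were higher and 11 lower, near the shares over all genes, and the median log2 difference was 0.12. In DMSO over the same hours 55 of the 64 were higher and 1 lower (median 1.21), and against DMSO at 9 h, palbociclib left 53 lower (median −1.14) and 0 higher, by edgeR (0 also at an unadjusted p below 0.05) and by DESeq2. The count of 14 was 9 with no filter on low counts, 9 without palbociclib 9 h replicate 1 and 8 without DMSO 6 h replicate 3. The promoters of 4 of these genes are printed because E2F factors are known to bind genes of this kind through such letters near their starts. E2F letters (TTTCGCGC, TTTGGCGC, TTTCCCGC or TTTGCCGC on either strand) occurred in a promoter of 28 of 53 matched list genes (52.8%) and of 3.99% of 27305 genes in the RefSeq GRCh38.p14 table. Capitals mark these letters in the 300 bases from 250 before to 50 after the start, read along the gene's strand, and the pair of matches in MCM2 overlap on opposite strands.
E2F1, chr20:33686336-33686635, minus strand: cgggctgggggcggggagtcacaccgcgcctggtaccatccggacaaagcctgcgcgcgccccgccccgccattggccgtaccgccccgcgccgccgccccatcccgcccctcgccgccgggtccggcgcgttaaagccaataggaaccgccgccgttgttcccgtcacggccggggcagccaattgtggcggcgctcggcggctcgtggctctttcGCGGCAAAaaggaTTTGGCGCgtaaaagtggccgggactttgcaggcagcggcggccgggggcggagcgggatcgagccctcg
CDC6, chr17:40287629-40287928, plus strand: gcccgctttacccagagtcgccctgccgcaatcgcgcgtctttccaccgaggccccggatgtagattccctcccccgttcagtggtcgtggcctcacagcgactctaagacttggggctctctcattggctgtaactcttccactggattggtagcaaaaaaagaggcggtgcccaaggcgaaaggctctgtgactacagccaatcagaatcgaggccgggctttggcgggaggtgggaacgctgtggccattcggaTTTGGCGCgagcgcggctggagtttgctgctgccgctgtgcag
MCM2, chr3:127598161-127598460, plus strand: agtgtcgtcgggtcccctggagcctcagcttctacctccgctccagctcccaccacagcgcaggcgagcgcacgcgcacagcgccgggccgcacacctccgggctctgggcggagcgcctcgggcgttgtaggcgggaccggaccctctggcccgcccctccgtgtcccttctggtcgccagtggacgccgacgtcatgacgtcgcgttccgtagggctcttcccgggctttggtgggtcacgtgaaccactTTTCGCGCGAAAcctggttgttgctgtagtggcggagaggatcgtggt
RBL1, chr20:37095948-37096247, minus strand: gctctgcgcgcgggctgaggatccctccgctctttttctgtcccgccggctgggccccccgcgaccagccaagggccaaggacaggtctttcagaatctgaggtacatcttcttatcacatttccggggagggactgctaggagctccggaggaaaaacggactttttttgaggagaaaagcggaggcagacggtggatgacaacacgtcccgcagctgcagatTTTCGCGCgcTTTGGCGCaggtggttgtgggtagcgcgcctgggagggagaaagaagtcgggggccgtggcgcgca

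Among the 4 genes with printed promoters, E2F1 fell, RBL1 rose and CDC6 and MCM2 did not pass the test. E2F1, an activating E2F factor (chromosome 20, 33675683 to 33686404 in GRCh38), had 0.448, 0.362 and 0.547 CPM in the palbociclib 9 h libraries, 9.86, 9.33 and 8.12 CPM in the DMSO 9 h libraries and 1.87, 0.818 and 1.54 CPM in the DMSO 6 h libraries. Every palbociclib library was below every DMSO 6 h library, by a log2 difference of −1.56 ± 0.33 (SE, adjusted p = 3.20e-04), on summed counts of 21 (exact Poisson 95% interval 13 to 32.1) and 61 (46.7 to 78.4). RBL1, the gene of the pocket protein p107, averaged 10.6 ± 0.25 CPM with palbociclib at 9 h, 22.4 ± 2.3 with DMSO at 9 h and 7.19 ± 0.83 with DMSO at 6 h (SD, n = 3 each), and its log2 difference was 0.54 ± 0.10 (adjusted p = 1.14e-04). It therefore lay above the DMSO 6 h level and below the DMSO 9 h level. MCM2, a subunit of the replicative helicase, averaged 11.7 ± 0.87 CPM with palbociclib at 9 h, 37.4 ± 2.3 with DMSO at 9 h and 10.6 ± 1.6 with DMSO at 6 h (log2 0.13 ± 0.12, adjusted p = 0.407). CDC6, which loads that helicase on origins, summed to 36 counts with palbociclib at 9 h (95% interval 25.2 to 49.8), 708 with DMSO at 9 h and 58 with DMSO at 6 h (44 to 75), at an adjusted p of 0.0988.

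Among the E2F genes that rose, UHRF1 and MCM6 stayed below vehicle at 9 h by the test. UHRF1, which guides maintenance DNA methylation, had 24.2, 25.4 and 23.6 CPM in the palbociclib 9 h libraries, 59.6, 63.2 and 57.0 CPM in the DMSO 9 h libraries and 14.0, 12.7 and 14.3 CPM in the DMSO 6 h libraries. Its log2 difference was 0.85 ± 0.10 (adjusted p = 5.73e-08) and −1.30 against DMSO at 9 h (adjusted p = 1.27e-12), so the drug libraries lay between the vehicle times with no overlap. MCM6, another helicase subunit, rose by 0.48 ± 0.09 to 45.8 ± 4.1 CPM, against 32.5 ± 3.6 CPM with DMSO at 6 h, and stood at 75.6 ± 5.3 CPM with DMSO at 9 h. POLA1, the catalytic subunit of the polymerase that starts each DNA strand, rose by 0.69 ± 0.10 and averaged 14.5 ± 1.1 CPM with palbociclib at 9 h, 15.9 ± 1.4 with DMSO at 9 h and 8.94 ± 1.1 with DMSO at 6 h. For POLA1 the difference from DMSO at 9 h did not pass the test (log2 −0.14 ± 0.09, adjusted p = 0.664).

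Some E2F genes were lower with palbociclib at 9 h than 3 h earlier without it, and these include genes with little RNA. FAM111B, a protease gene (chromosome 11, 59107185 to 59127410), held 0, 2 and 2 counts in the palbociclib libraries, 354, 419 and 221 in the DMSO 9 h libraries and 9, 28 and 10 in the DMSO 6 h libraries. Summed, that is 4 counts (95% interval 1.09 to 10.2) against 47 (34.5 to 62.5) with DMSO at 6 h, and its fitted log2 difference of −3.45 ± 0.56 depends on the prior count. RRM2, the small subunit of ribonucleotide reductase, fell to 3.14, 2.64 and 3.89 CPM in the palbociclib 9 h libraries, against 7.16, 6.40 and 5.09 CPM in the DMSO 6 h libraries (log2 −0.97 ± 0.19). With DMSO at 9 h it was at 11.1, 11.6 and 8.44 CPM, above every palbociclib library. E2F7, a repressing E2F factor, fell by 0.70 ± 0.10 to 14.1 ± 0.56 CPM, against 23.0 ± 1.1 CPM with DMSO at 6 h, and its DMSO 9 h mean was 23.2 ± 2.2 CPM. SLBP, which binds the stem-loop of histone mRNA, fell by 0.61 ± 0.08, and in DMSO at 9 h its log2 difference from 6 h was −0.33 ± 0.08.

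**Figure D2:**
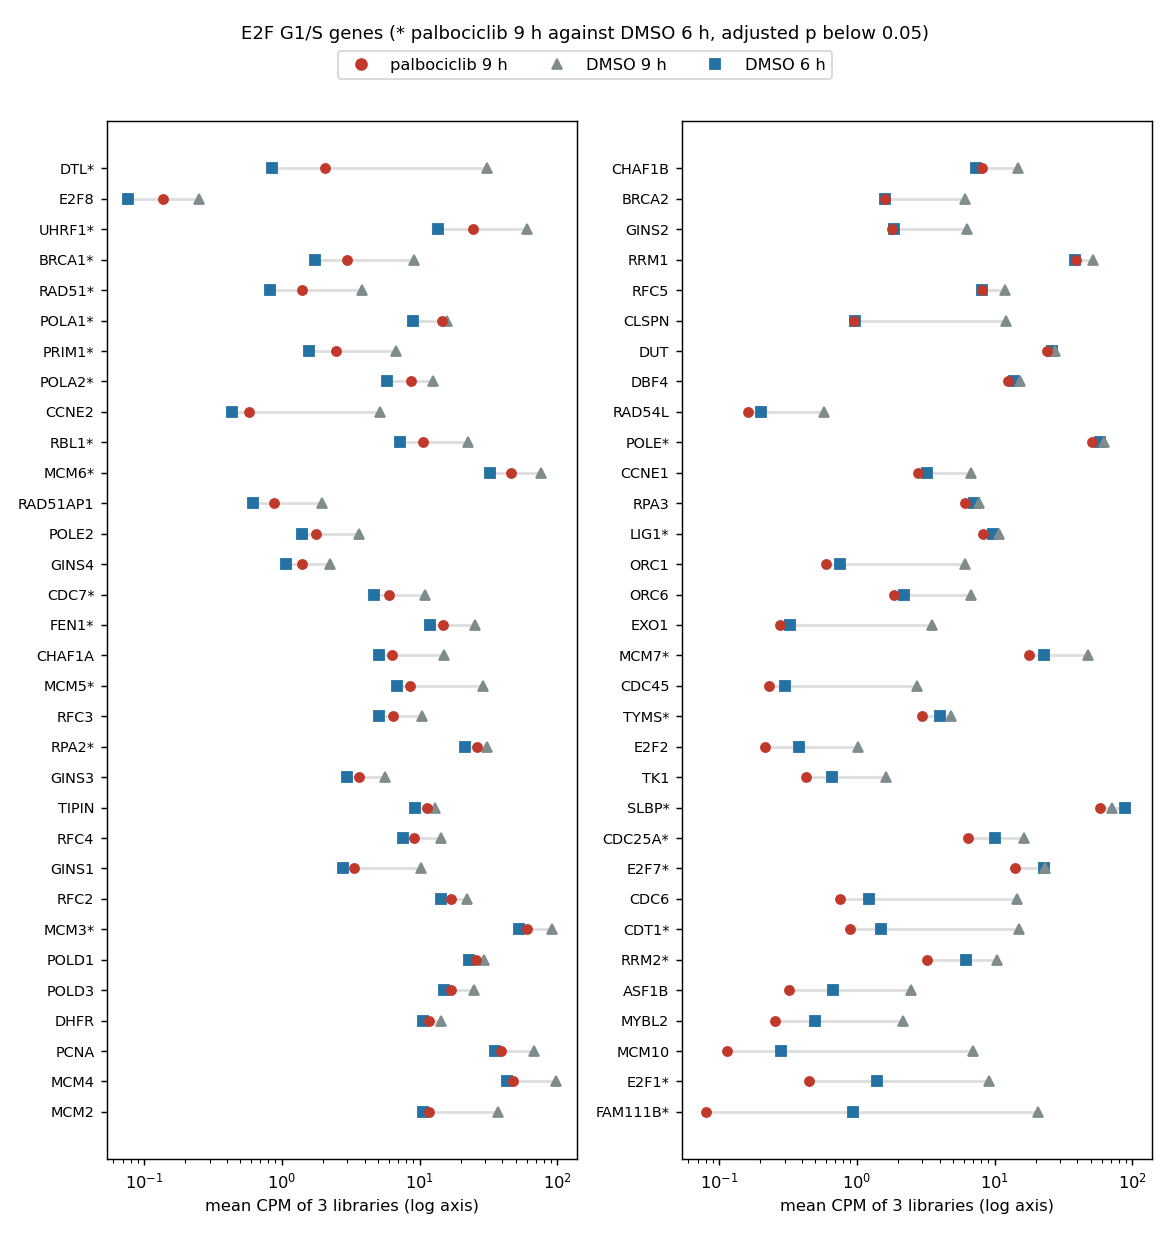
Mean CPM of 3 libraries on a log axis for the 64 tested E2F G1/S genes, ordered by the log2 difference, with palbociclib 9 h as red circles, DMSO 9 h as grey triangles and DMSO 6 h as blue squares. Red circles and blue squares lie close together for most genes, with 25 of 64 differing by the test (asterisks), while the triangles lie to the right for most.

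Of 23 tested CDK and pocket protein regulators, which act upstream of E2F, 5 were higher and 3 lower (median 0.08), near the 19.8% and 18.3% over all genes. Cyclin D1, RB1 and the CDK inhibitor p57 were among those called. The count of 5 was 3 with no filter, 3 without palbociclib 9 h replicate 2 and 3 without DMSO 6 h replicate 3. Transcript levels say nothing of the kinase activity that palbociclib blocks. CCND1, the gene of cyclin D1 (chromosome 11, 69641087 to 69654474), had 667, 656 and 653 CPM in the palbociclib 9 h libraries, 658, 621 and 632 CPM in the DMSO 9 h libraries and 494, 577 and 493 CPM in the DMSO 6 h libraries. It rose by 0.34 ± 0.10 (adjusted p = 0.00589), with no overlap with DMSO at 6 h, and its log2 difference from DMSO at 9 h was 0.05 ± 0.10. RB1, the retinoblastoma protein gene, rose by 0.49 ± 0.07 to 114 ± 10.2 CPM, against 81.1 ± 4.4 CPM with DMSO at 6 h. CDKN1C, the gene of the CDK inhibitor p57, fell by 0.80 ± 0.12 to 15.9 ± 1.9 CPM, against 27.6 ± 2.0 CPM with DMSO at 6 h. LIN54, the DNA-binding subunit of the MuvB complex, rose by 0.43 ± 0.10. SKP2, which marks p27 for destruction, rose by 0.24 ± 0.07 (adjusted p = 0.00924), a call that was lost with no filter, without palbociclib 9 h replicate 2 and without DMSO 6 h replicate 3.

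The genes of both kinases, of the other D cyclins and of the inhibitors p21 and p27 gave no call. CDK4, whose exons overlap an opposite-strand gene over 43.2% of their bases in counts that ignore strand, averaged 45.5 ± 0.99 CPM with palbociclib at 9 h and 42.6 ± 3.7 CPM with DMSO at 6 h (log2 0.09 ± 0.08, adjusted p = 0.376). CDK6 averaged 325 ± 10.1 CPM with palbociclib at 9 h and 298 ± 11 CPM with DMSO at 6 h, and its log2 difference was 0.12 ± 0.09. CCND2 had 154, 127 and 111 CPM in the palbociclib 9 h libraries and 159, 146 and 215 CPM in the DMSO 6 h libraries, which overlapped, and it was called lower with no filter, in the fit of the 6 libraries alone and with the library axis as a covariate. CCND3 differed by 0.04 ± 0.07, CDKN1A (p21) by −0.11 ± 0.08, CDKN1B (p27) by −0.00 ± 0.10 and RBL2 (p130) by −0.11 ± 0.06, all on the log2 scale with adjusted p-values of at least 0.178. Cyclin E genes were also without a call against DMSO at 6 h. CCNE1 averaged 2.79 ± 0.36 CPM with palbociclib at 9 h, 6.72 ± 0.84 with DMSO at 9 h and 3.24 ± 0.098 with DMSO at 6 h. CCNE2, which shares 37.1% of its exonic bases with an opposite-strand gene, summed to 29 counts (95% interval 19.4 to 41.6) with palbociclib at 9 h, 250 with DMSO at 9 h and 19 (11.4 to 29.7) with DMSO at 6 h. Both stood near the DMSO 6 h level and below DMSO at 9 h, by log2 −1.29 and −3.09 (adjusted p = 9.13e-06 and 2.33e-10).

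A part of the genes of mitosis was higher at 9 h with palbociclib than at 6 h with DMSO, at low levels in all 3 groups for the members given here. Of 51 tested G2/M genes 14 were higher (27.5%, against 19.8% over all genes) and 5 lower (9.8%, against 18.3%), at a median of 0.25. In DMSO over the same hours 29 were higher and 2 lower (median 0.81). Against DMSO at 9 h, 10 of 51 were lower (median −0.43). The 5 lower were 3 without palbociclib 9 h replicate 2, 3 without its replicate 3 and 2 without DMSO 6 h replicate 2. Promoters of such genes often carry the CHR element, here the letters TTTGAA on either strand, which occurred for 33 of 44 matched G2/M genes (75%) and 18.2% of all 27305 genes. The promoter of KIF20B, a member that differed from both DMSO times, is printed as an example and shows it at 2 adjoining places, in capitals.
KIF20B, chr10:89701340-89701639, plus strand: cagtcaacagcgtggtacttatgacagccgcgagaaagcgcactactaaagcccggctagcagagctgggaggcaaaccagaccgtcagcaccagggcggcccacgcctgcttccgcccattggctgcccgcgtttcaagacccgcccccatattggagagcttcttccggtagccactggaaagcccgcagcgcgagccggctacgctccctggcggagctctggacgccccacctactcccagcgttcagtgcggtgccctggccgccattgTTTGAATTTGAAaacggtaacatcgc

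KIF20B, a kinesin of cytokinesis, had 12.2, 14.0 and 13.1 CPM in the palbociclib 9 h libraries, 18.1, 16.5 and 19.0 CPM in the DMSO 9 h libraries and 7.47, 7.12 and 6.71 CPM in the DMSO 6 h libraries. Its log2 difference was 0.89 ± 0.13 against DMSO at 6 h and −0.43 ± 0.11 against DMSO at 9 h (adjusted p = 0.0438), so the drug group again lay between the vehicle times. TPX2, a spindle assembly factor, rose by 0.95 ± 0.10 to 16.7 ± 0.89 CPM, against 8.53 ± 0.89 CPM with DMSO at 6 h. ECT2, an exchange factor of cytokinesis, rose by 0.73 ± 0.07, and SMC4, a condensin subunit with 25.6% of its exonic bases shared with an opposite-strand gene, by 0.54 ± 0.09. PTTG1, the gene of securin, fell by 1.09 ± 0.15 to 4.93 ± 0.79 CPM, against 10.4 ± 1.5 CPM with DMSO at 6 h. NUSAP1, a spindle microtubule binder, fell by 0.97 ± 0.20, and in DMSO its step over the same hours was 0.07 ± 0.17. CCNA2 (log2 0.53 ± 0.28) and CCNB1 (0.29 ± 0.12), the cyclins of S phase and mitosis, had no call, at 1.73 ± 0.19 and 9.60 ± 1.6 CPM with palbociclib at 9 h and 1.17 ± 0.14 and 7.71 ± 1.4 CPM with DMSO at 6 h. CCNB1 was called higher without palbociclib 9 h replicate 2 and without DMSO 6 h replicate 1.

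Chromatin and DNA repair genes had larger shares higher than the 19.8% over all genes. Of 29 chromatin genes 12 were higher (41.4%) and 5 lower (17.2%), at a median of 0.11. Of 30 DNA repair and checkpoint genes 10 were higher (33.3%) and 5 lower (16.7%), at a median of 0.07. Both shares lower were near the 18.3% over all genes. In DMSO over these hours the counts were 17 higher and 4 lower for chromatin and 22 higher and 1 lower for repair, and 6 and 13 members were lower with palbociclib than with DMSO at 9 h. The 5 lower chromatin genes were 3 without palbociclib 9 h replicate 1 or DMSO 6 h replicate 1, and the 5 lower repair genes were 3 without palbociclib 9 h replicate 2, DMSO 6 h replicate 1 or DMSO 6 h replicate 2. DNMT1, the maintenance DNA methyltransferase, had 85.6, 91.8 and 81.5 CPM in the palbociclib 9 h libraries, 102, 106 and 104 CPM in the DMSO 9 h libraries and 54.6, 54.6 and 55.7 CPM in the DMSO 6 h libraries (log2 0.65 ± 0.06, and −0.26 ± 0.06 against DMSO at 9 h). The de novo enzyme gene DNMT3A went the other way and fell by 0.75 ± 0.09, as did TET3, which oxidises methylcytosine (−0.85 ± 0.08), and H2AFX, the histone variant marked at DNA breaks (−1.01 ± 0.10). SMC1A, a cohesin subunit, rose by 0.74 ± 0.06, and its value against DMSO at 9 h was −0.01 ± 0.06. Sensors of DNA breaks and stalled forks rose by 0.64 ± 0.06 (RAD50), 0.42 ± 0.07 (NBN) and 0.37 ± 0.06 (TOPBP1).

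WEE1, the kinase that restrains CDK1 and CDK2, moved in opposite directions with drug and vehicle. It fell to 5.60, 4.45 and 4.71 CPM in the palbociclib 9 h libraries, against 8.56, 8.43 and 8.03 CPM in the DMSO 6 h libraries, by 0.78 ± 0.18 on the log2 scale (adjusted p = 0.00108). In the DMSO 9 h libraries it stood at 21.8, 22.5 and 20.3 CPM, higher than at 6 h by 1.37 ± 0.15. The 3 groups did not overlap, and the difference between drug and vehicle at 9 h was −2.15 ± 0.16 (adjusted p = 2.07e-11). E2F1, FAM111B and RRM2 showed the same order of groups.

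More than the background share of proteasome, chaperone and tRNA synthetase genes was higher at 9 h with palbociclib. Proteasome subunits had 22 of 34 members higher (64.7%) and 1 lower (2.9%), at a median of 0.21. Chaperonin and heat shock genes had 16 of 24 higher (66.7%) and 3 lower (12.5%), at 0.23. Aminoacyl-tRNA synthetases with initiation factors had 22 of 37 higher (59.5%) and 4 lower (10.8%), at 0.20. These compare with 19.8% and 18.3% over all genes. Without the drug the counts from 6 to 9 h were 17 and 1, 14 and 4, and 13 and 4, and 0 members of the 3 lists differed between drug and vehicle at 9 h by edgeR or DESeq2, with 1, 1 and 5 at an unadjusted p below 0.05 by edgeR. The 22 proteasome genes were 13 without DMSO 6 h replicate 1, 13 without DMSO 6 h replicate 3 and 11 without replicate 3 of the palbociclib groups and of DMSO 24 h, 5 libraries that an earlier look at these data had set apart. The 4 lower synthetase and initiation factor genes were 1 with no filter and 1 or 2 without palbociclib 9 h replicate 2 or 3, DMSO 6 h replicate 1 or 2, or those 5 libraries. PSMD2, a subunit of the proteasome's regulatory particle, had 406, 388 and 406 CPM in the palbociclib 9 h libraries, 403, 418 and 389.7 CPM in the DMSO 9 h libraries and 284, 295 and 269 CPM in the DMSO 6 h libraries (log2 0.50 ± 0.06). Each palbociclib library exceeded each DMSO 6 h library, and drug and vehicle at 9 h overlapped in range. PSMD13 rose by 0.41 ± 0.07, whereas PSME4, an alternative proteasome activator, fell by 0.41 ± 0.05.

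Both chaperonin and heat shock genes were among the higher members, and the 3 lower ones were of the heat shock kind. HSP90AA1, an inducible form of HSP90, rose by 0.47 ± 0.06 to 2958 ± 158 CPM, against 2134 ± 99 CPM with DMSO at 6 h, and CCT5, a chaperonin subunit whose exonic bases are 30.1% shared with an opposite-strand gene, rose by 0.49 ± 0.07. The heat shock genes HSPA1B and DNAJB1 fell by 0.80 ± 0.08 and 0.47 ± 0.08. HSPA1B has a near-identical neighbour copy, so its count is uncertain. Synthetases for valine (VARS) and tryptophan (WARS) rose by 0.59 ± 0.06 and 0.65 ± 0.07. EIF2B3, part of the exchange factor that recharges the initiator eIF2, rose by 0.47 ± 0.07, and EIF1, which guards start codon choice, fell by 0.30 ± 0.06.

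Ribosome biogenesis genes, which build ribosomes in the nucleolus, had 5 of 56 members higher (8.9%, against 19.8% over all genes). They had 17 lower (30.4%, against 18.3%), at a median of −0.07. In DMSO from 6 to 9 h 4 were higher and 17 lower. The 17 lower with palbociclib were 11 without DMSO 6 h replicate 2 and 11 without the 5 libraries named above. The 5 higher were 8 with the library axis as a covariate. URB2, a pre-ribosome factor, had 104, 83.3 and 83.6 CPM in the palbociclib 9 h libraries, 115, 100.1 and 113 CPM in the DMSO 9 h libraries and 169, 159 and 158 CPM in the DMSO 6 h libraries (log2 −0.84 ± 0.08). NOC3L fell by 0.57 ± 0.06, RRS1 by 0.41 ± 0.09 and POLR1B, a subunit of RNA polymerase I, by 0.25 ± 0.06. EBNA1BP2 and FTSJ3 rose by 0.46 ± 0.08 and 0.45 ± 0.07. Hosts of small nucleolar RNAs and growth arrest RNAs had 12 of 17 members lower (70.6%, against 18.3% over all genes), at a median of −0.42. Of the 17, 0 were higher by edgeR (0 also at an unadjusted p below 0.05) and by DESeq2, and 11 were lower in DMSO. GAS5, a host RNA that accumulates in growth arrest, had 166, 148 and 163 CPM in the palbociclib 9 h libraries, 153, 150.5 and 152 CPM in the DMSO 9 h libraries and 222, 222 and 195 CPM in the DMSO 6 h libraries, a log2 difference of −0.42 ± 0.06. DANCR, another host, fell by 0.33 ± 0.06.

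MYC drives many genes of ribosome and protein synthesis, and its partners share or oppose its binding. Of 12 tested MYC and MAX network genes 2 were higher (16.7%, near the 19.8% over all genes) and 6 lower (50.0%, against 18.3%), at a median of −0.20. The 6 were 3 without palbociclib 9 h replicate 3 and 3 without the 5 libraries. MYC had 470.5, 460.5 and 427 CPM in the palbociclib 9 h libraries, 456, 425 and 389.7 CPM in the DMSO 9 h libraries and 577, 609 and 523 CPM in the DMSO 6 h libraries. Its log2 difference of −0.33 ± 0.10 (adjusted p = 0.0128) lost the call without palbociclib 9 h replicate 3, without DMSO 6 h replicate 2 and without the 5 libraries. Among the MAX partners that oppose MYC, MXI1 fell by 0.82 ± 0.07 and MNT by 0.50 ± 0.08, whereas MXD1 rose by 0.72 ± 0.11 and MXD4 by 0.26 ± 0.06. MLXIP, a glucose-sensing partner of MLX, fell by 0.30 ± 0.06.

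Nuclear genes of mitochondria that passed the test were mostly higher, by small amounts. Mitochondrial ribosome and import genes had 21 of 58 higher and 4 lower (median 0.14), and respiratory chain and ATP synthase genes 13 of 55 higher and 0 lower (0.10; 1 lower at an unadjusted p below 0.05 by edgeR, and 0 by DESeq2), against 15 and 7 and 11 and 0 in DMSO over these hours. The shares higher were 36.2% and 23.6%, against 19.8% over all genes, so that of the respiratory list was near the background. The shares lower were 6.9% and 0.0%, against 18.3%. The counts of higher genes rested on single libraries. The 21 were 12 without palbociclib 9 h replicate 2, 13 without its replicate 3, 13 without DMSO 6 h replicate 1, 9 without DMSO 6 h replicate 3 and 12 without the 5 libraries. The 13 were 7 without palbociclib 9 h replicate 2, 8 without DMSO 6 h replicate 1, 7 without DMSO 6 h replicate 3 and 6 without the 5 libraries. With exon length trends removed 7 of the 58 and 3 of the 55 were lower. MRPL3, of the large mitochondrial ribosomal subunit, rose by 0.35 ± 0.07 and NDUFS1, the largest subunit of complex I, by 0.32 ± 0.04, while TIMM8A, an inner membrane import chaperone, fell by 0.52 ± 0.08. Cytosolic ribosomal protein genes stayed below the background, with 5 of 79 higher and 2 lower (median 0.03), and these counts ran from 0 to 13 under the alternatives.

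**Figure D3:**
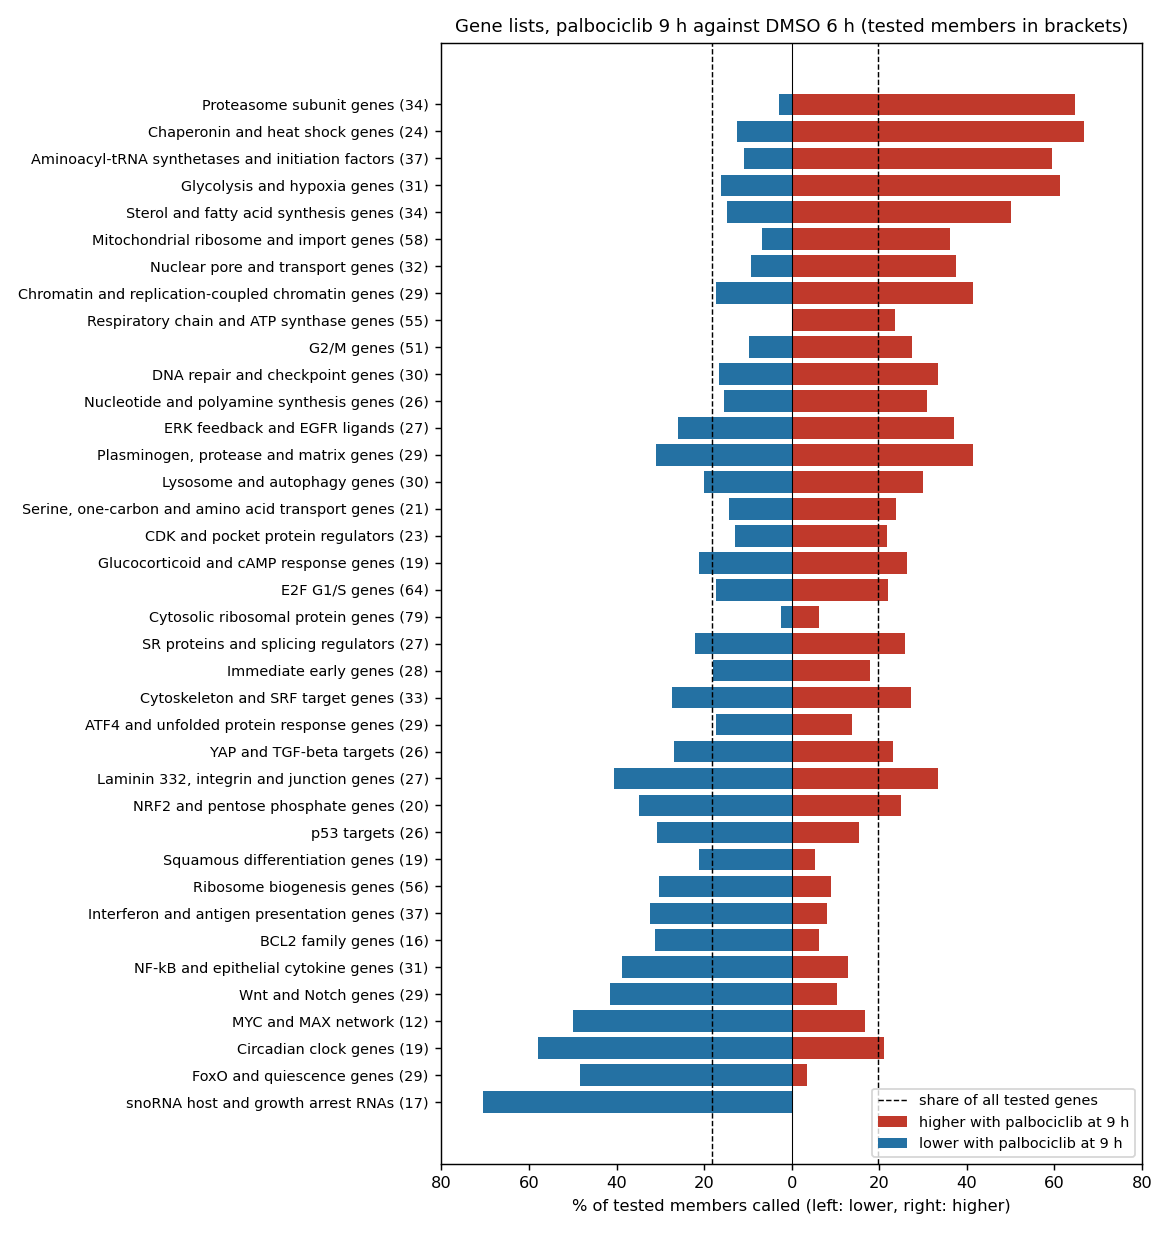
Percent of each list's tested members (number in brackets) that passed the test as higher (red, right) or lower (blue, left) at 9 h with palbociclib than at 6 h with DMSO. The lists of breast, mesenchymal, and blood and endothelial markers are left out. The others are ordered by the percent higher minus the percent lower. Dashed lines mark the shares over all tested genes, 19.8% higher and 18.3% lower, and the proteasome (22 of 34) and chaperonin (16 of 24) lists lie far past the line on the right, as the snoRNA host list (12 of 17) does on the left.

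Of genes of glucose use and lipid synthesis, more were higher than lower. Glycolysis and hypoxia genes had 19 of 31 members higher (61.3%) and 5 lower (16.1%), at a median of 0.31. Sterol and fatty acid synthesis genes had 17 of 34 higher (50.0%) and 5 lower (14.7%), at 0.16. The shares over all genes were 19.8% and 18.3%, so those lower were near the background. In DMSO from 6 to 9 h the counts were 16 and 3, and 14 and 5, and 0 members of either list differed between drug and vehicle at 9 h by edgeR or DESeq2, with 1 in each list at an unadjusted p below 0.05 by edgeR. The 5 lower glycolysis genes were 3 with no filter and 3 without each of palbociclib 9 h replicates 1 and 2 and DMSO 6 h replicates 2 and 3. SLC2A1, the glucose transporter GLUT1 (chromosome 1, 42925375 to 42959173), had 97.9, 102 and 107 CPM in the palbociclib 9 h libraries, 99.7, 101 and 90.5 CPM in the DMSO 9 h libraries and 50.6, 52.1 and 49.6 CPM in the DMSO 6 h libraries. All drug libraries were above all DMSO 6 h libraries, by 1.01 ± 0.07 (adjusted p = 5.15e-13), and the value against DMSO at 9 h was 0.07 ± 0.06. VEGFA, an angiogenic growth factor, rose by 0.76 ± 0.07, P4HA1, a collagen prolyl hydroxylase, by 0.68 ± 0.07 and LDHA, which turns pyruvate into lactate, by 0.55 ± 0.07. Not every gene known to respond to hypoxia rose. ADM, the gene of adrenomedullin, fell to 25.1, 26.2 and 30.5 CPM in the palbociclib 9 h libraries, against 68.5, 63.6 and 57.2 CPM in the DMSO 6 h libraries (−1.21 ± 0.14), and PFKFB3, a regulator of glycolytic flux, fell by 0.47 ± 0.06.

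In lipid synthesis, ELOVL6, which lengthens fatty acids, had 127, 142 and 135 CPM in the palbociclib 9 h libraries, 131.7, 139.6 and 136 CPM in the DMSO 9 h libraries and 82.5, 87.2 and 83.7 CPM in the DMSO 6 h libraries. Its log2 difference was 0.68 ± 0.05 (adjusted p = 1.81e-11), with no overlap. SCD, the fatty acid desaturase, rose by 0.55 ± 0.08. LSS, which closes the sterol ring, fell by 0.47 ± 0.07, and SREBF2, the master regulator of sterol genes, fell by 0.32 ± 0.06. The list therefore held members on both sides, with the regulator itself among the lower ones.

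Nucleotide, serine and stress genes were mixed. Nucleotide and polyamine synthesis genes had 8 of 26 higher (30.8%) and 4 lower (15.4%), at a median of 0.08, against 19.8% and 18.3% over all genes. The 4 were 2 with no filter, without palbociclib 9 h replicate 2 or without DMSO 6 h replicate 2. CAD, the first enzyme of pyrimidine synthesis, rose by 0.42 ± 0.06 and NME1, a nucleoside diphosphate kinase, by 0.50 ± 0.07. PPAT, the first committed enzyme of purine synthesis, fell by 0.51 ± 0.10 and ODC1, which starts polyamine synthesis, by 0.42 ± 0.06. Serine, one-carbon and amino acid transport genes had 5 of 21 higher (23.8%) and 3 lower (14.3%), near the shares over all genes. The 3 were 5 with the replicate block or without DMSO 6 h replicate 3, and 6 with the block and exon length trends removed. PSPH, the last enzyme of serine synthesis, averaged 9.13 ± 0.56 CPM with palbociclib at 9 h and 4.97 ± 0.71 CPM with DMSO at 6 h (0.90 ± 0.11). MTHFD2, a mitochondrial folate enzyme with 33.2% of its exonic bases shared with an opposite-strand gene, fell by 0.66 ± 0.08.

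ATF4 and unfolded protein response genes had 4 of 29 higher (13.8%, against 19.8% over all genes) and 5 lower (17.2%, against 18.3%). The 4 were 7 with the library axis as a covariate. Against DMSO at 9 h, 2 of 29 were higher. HERPUD1, which helps clear proteins from the endoplasmic reticulum, had 35.7, 41.8 and 45.7 CPM in the palbociclib 9 h libraries, 29.8, 35.9 and 32.0 CPM in the DMSO 9 h libraries and 22.9, 22.3 and 24.6 CPM in the DMSO 6 h libraries. It rose by 0.82 ± 0.08, and was one of the few genes higher with drug than with vehicle at 9 h (log2 0.33 ± 0.08, adjusted p = 0.0225). Whether this last call holds in the alternatives was not examined. DDIT3, the stress factor CHOP, with 28% of its exonic bases shared with an opposite-strand gene, rose by 1.00 ± 0.21 to 3.60 ± 0.50 CPM, against 1.74 ± 0.46 CPM with DMSO at 6 h. HSPA5, the chaperone BiP, fell by 0.40 ± 0.08, so the members named for one stress response did not move together.

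Genes of quiescence were lower more often than higher. Of 29 tested FoxO and quiescence genes 14 were lower (48.3%, against 18.3% over all genes) and 1 higher (3.4%, against 19.8%), at a median of −0.36. In DMSO over the same hours 11 were lower and 1 higher. SOD2, the mitochondrial superoxide dismutase, fell to 311, 245 and 262 CPM in the palbociclib 9 h libraries, against 827, 716 and 642 CPM in the DMSO 6 h libraries (−1.42 ± 0.09, adjusted p = 2.63e-13), and stood at 319.8, 262 and 277 CPM with DMSO at 9 h. BCL6, a transcriptional repressor, fell by 0.99 ± 0.12, YPEL5 by 0.64 ± 0.07 and PDK4, which restrains pyruvate oxidation, by 1.93 ± 0.37 to 1.29 ± 0.41 CPM, against 4.92 ± 1.2 CPM with DMSO at 6 h. The exception was CCNG2, the gene of cyclin G2, known for its link to cell cycle exit. It had 106, 120.5 and 123 CPM in the palbociclib 9 h libraries, 87.1, 99.2 and 101 CPM in the DMSO 9 h libraries and 58.5, 64.2 and 58.4 CPM in the DMSO 6 h libraries. It rose by 0.95 ± 0.07 (adjusted p = 1.26e-11) and exceeded vehicle at 9 h by 0.28 ± 0.07 (adjusted p = 0.0339), with no library of the 3 groups overlapping another group. The call against vehicle at 9 h was not followed through the alternatives. The count of 1 higher was 2 in the fit of the 6 libraries alone and 2 without DMSO 6 h replicate 2.

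Targets of p53 had 4 of 26 higher (15.4%) and 8 lower (30.8%), against 19.8% and 18.3% over all genes. TP53I3, an oxidoreductase, rose by 0.52 ± 0.07 and DDB2, a sensor of ultraviolet damage, fell by 0.61 ± 0.09. BCL2 family genes had 1 of 16 higher (6.2%) and 5 lower (31.2%). The 1 was 0 without palbociclib 9 h replicate 1, DMSO 6 h replicate 1 or DMSO 6 h replicate 3, and the 5 were 2 with no filter, 3 without DMSO 6 h replicate 2 and 8 with the block and exon length trends removed. BCL2L11, the gene of the death-promoting protein BIM, fell by 1.09 ± 0.10 to 9.59 ± 1.1 CPM, against 20.2 ± 1.2 CPM with DMSO at 6 h.

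Clock genes were lower more often than higher, and the higher ones were ARNTL, CLOCK, BHLHE40 and NFIL3. In the circadian loop, CLOCK and ARNTL (BMAL1) act through E-box letters on genes such as the PER and NR1D genes, whose products feed back on the loop, and the factors TEF, DBP and HLF act through D-box letters that NFIL3 also binds. Of 19 clock genes 4 were higher (21.1%, near the 19.8% over all genes) and 11 lower (57.9%, against 18.3%), at a median of −0.73. In DMSO from 6 to 9 h 4 were higher and 11 lower as well (median −0.67). Between drug and vehicle at 9 h 0 were called by edgeR or DESeq2 (1 each way at an unadjusted p below 0.05 by edgeR). The promoters of TEF, NR1D2 and PER3, the members with the largest falls, are printed with E-box (CACGTG) and D-box (TTATGTAA or TTATGCAA) letters on either strand in capitals. E-box letters occurred for 6 of 17 matched clock genes (35.3%) and 8.77% of all genes, and D-box letters for 3 of 17 (17.6%) and 2.16%. TEF (its first promoter) holds an E-box, NR1D2 (the second of its promoters in the table) a D-box followed by a pair of E-boxes and PER3 (its first promoter) a D-box. Each of these genes has 2 promoters in the table, and the letters in the other one are not shown.
TEF, chr22:41367205-41367504, plus strand: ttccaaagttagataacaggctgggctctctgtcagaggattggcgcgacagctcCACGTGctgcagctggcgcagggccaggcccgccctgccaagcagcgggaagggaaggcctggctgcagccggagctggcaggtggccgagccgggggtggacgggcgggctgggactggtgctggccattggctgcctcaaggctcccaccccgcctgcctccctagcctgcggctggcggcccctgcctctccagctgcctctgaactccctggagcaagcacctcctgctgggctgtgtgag
NR1D2, chr3:23945871-23946170, plus strand: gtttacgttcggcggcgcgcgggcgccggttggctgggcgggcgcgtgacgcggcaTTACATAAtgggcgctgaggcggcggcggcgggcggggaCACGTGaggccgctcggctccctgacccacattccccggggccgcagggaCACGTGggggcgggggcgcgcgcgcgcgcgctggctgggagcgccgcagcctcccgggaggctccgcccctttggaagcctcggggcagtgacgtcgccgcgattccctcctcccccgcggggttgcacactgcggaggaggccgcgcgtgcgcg
PER3, chr1:7784041-7784340, plus strand: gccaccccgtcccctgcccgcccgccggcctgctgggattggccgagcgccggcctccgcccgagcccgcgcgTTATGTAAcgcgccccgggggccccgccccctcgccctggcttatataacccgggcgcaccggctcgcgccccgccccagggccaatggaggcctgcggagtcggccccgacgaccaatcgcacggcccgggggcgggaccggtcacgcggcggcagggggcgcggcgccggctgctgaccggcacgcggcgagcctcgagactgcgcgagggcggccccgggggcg

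TEF had 0.897, 0.982 and 0.683 CPM in the palbociclib 9 h libraries, 1.07, 0.913 and 0.71 CPM in the DMSO 9 h libraries and 5.99, 6.36 and 7.41 CPM in the DMSO 6 h libraries, a log2 difference of −2.91 ± 0.20 (adjusted p = 1.06e-12). Drug and vehicle overlapped at 9 h and both lay far below 6 h. NR1D2, the nuclear receptor REV-ERB beta, had 5.60, 4.91 and 5.53 CPM in the palbociclib 9 h libraries and 20.1, 19.8 and 19.8 CPM in the DMSO 6 h libraries (−1.90 ± 0.15). PER3 fell by 1.93 ± 0.19, PER2 by 1.37 ± 0.14 and PER1 by 0.43 ± 0.10. ARNTL (chromosome 11, 13276652 to 13387266) had 57.7, 69.8 and 62.0 CPM in the palbociclib 9 h libraries, 53.9, 67.5 and 59.5 CPM in the DMSO 9 h libraries and 27.9, 27.4 and 23.7 CPM in the DMSO 6 h libraries, a rise of 1.26 ± 0.08 (adjusted p = 3.91e-13). CLOCK rose by 0.35 ± 0.07, BHLHE40, a repressor that competes at E-boxes, by 0.63 ± 0.11 and NFIL3 by 0.70 ± 0.13.

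Growth factor signalling genes moved in both directions. Immediate early genes had 5 of 28 higher and 5 lower (median −0.04), near the background, and the 5 lower were 3 without palbociclib 9 h replicate 1, DMSO 6 h replicate 2 or DMSO 6 h replicate 3. FOS (log2 0.12 ± 0.15) and EGR1 (−0.10 ± 0.36) had no call, and EGR1 had 151, 171 and 148 CPM in the palbociclib 9 h libraries and 169, 164 and 171 CPM in the DMSO 6 h libraries, which overlapped. JUNB, an AP-1 subunit, rose by 0.74 ± 0.11, and IER3, with 26.5% of its exonic bases shared with an opposite-strand gene, by 0.52 ± 0.13. SRF, which drives many early and actin genes, had 58.8, 57.9 and 53.3 CPM in the palbociclib 9 h libraries, 64.3, 60.7 and 53.2 CPM in the DMSO 9 h libraries and 102, 105 and 104 CPM in the DMSO 6 h libraries, a log2 difference of −0.87 ± 0.07. FOSL1, another AP-1 subunit, fell by 0.43 ± 0.07.

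ERK feedback regulators and EGF receptor ligands had 10 of 27 higher (37.0%, against 19.8% over all genes) and 7 lower (25.9%, against 18.3%), at a median of 0.13. In DMSO 8 were higher and 6 lower. The ligands EREG (epiregulin) and AREG (amphiregulin) rose by 1.37 ± 0.13 and 0.65 ± 0.11, while the ligand EPGN (epigen) fell by 0.54 ± 0.07. EREG had 26.7, 29.7 and 24.1 CPM in the palbociclib 9 h libraries, 25.3, 27.9 and 20.3 CPM in the DMSO 9 h libraries and 9.34, 11.5 and 10.1 CPM in the DMSO 6 h libraries, with drug and vehicle at 9 h overlapping and both above 6 h. The ERK-driven ETS factor ETV4 rose by 1.14 ± 0.14 and PHLDA1 by 0.73 ± 0.06. SPRY1, an inhibitor of receptor signalling, fell by 1.27 ± 0.21 and DUSP5, a nuclear ERK phosphatase, by 0.94 ± 0.13.

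YAP and TGF-beta targets had 6 of 26 higher and 7 lower, close to the background. LTBP2, a latent TGF-beta binding protein family member, rose by 0.78 ± 0.07 and the receptor gene TGFBR2 by 0.49 ± 0.05. AJUBA, a LIM protein of the Hippo pathway, fell by 0.69 ± 0.07 and CRIM1 by 0.53 ± 0.06.

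Immune genes of the epithelium were lower more often than higher. Interferon and antigen presentation genes had 3 of 37 higher (8.1%, against 19.8% over all genes) and 12 lower (32.4%, against 18.3%), at a median of −0.12. NF-kB and cytokine genes had 4 of 31 higher (12.9%) and 12 lower (38.7%), at −0.15. In DMSO over the same hours the counts were 3 and 12, and 5 and 14. The 4 higher cytokine genes were 7 with the replicate block or the library axis and 2 without DMSO 6 h replicate 3. GBP1, an interferon-induced GTPase, fell to 37.0, 30.1 and 32.5 CPM in the palbociclib 9 h libraries, against 105, 105 and 98.6 CPM in the DMSO 6 h libraries (−1.64 ± 0.09, adjusted p = 4.33e-15), and stood at 37.4, 32.7 and 31.9 CPM with DMSO at 9 h. GBP2 fell by 0.60 ± 0.08, whereas IFIH1, the RNA sensor MDA5, rose by 0.50 ± 0.12. BIRC3, an inhibitor of apoptosis, fell by 0.60 ± 0.11 and the cytokine IL24 by 1.16 ± 0.17. The cytokines IL11 and CSF3 rose by 0.92 ± 0.23 and 0.56 ± 0.10.

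In the Wnt and Notch list 3 of 29 genes were higher (10.3%, against 19.8% over all genes) and 12 lower (41.4%, against 18.3%). The median was −0.24, and in DMSO the counts were 4 and 9. TCF7, a nuclear effector of Wnt, fell by 1.41 ± 0.15 and NOTCH1 by 0.52 ± 0.09. The Notch ligand JAG1 rose by 0.79 ± 0.07. TP63, the basal epithelial factor p63, had 85.8, 90.0 and 90.5 CPM in the palbociclib 9 h libraries, 93.4, 90.4 and 93.5 CPM in the DMSO 9 h libraries and 42.4, 44.2 and 49.5 CPM in the DMSO 6 h libraries, a rise of 0.97 ± 0.11 (adjusted p = 1.39e-08).

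Genes of matrix, proteolysis and adhesion moved in both directions more often than all genes. Plasminogen, protease and matrix genes had 12 of 29 higher (41.4%) and 9 lower (31.0%). Laminin, integrin and junction genes had 9 of 27 higher (33.3%) and 11 lower (40.7%), where all genes had 19.8% and 18.3%. In DMSO from 6 to 9 h the counts were 14 and 9, and 9 and 12. Both plasminogen activators changed, in opposite directions. PLAU, the urokinase gene, with 31.1% of its exonic bases shared with an opposite-strand gene, had 78.1, 78.8 and 89.4 CPM in the palbociclib 9 h libraries, 82.2, 83.5 and 78.1 CPM in the DMSO 9 h libraries and 37.7, 39.9 and 37.1 CPM in the DMSO 6 h libraries, a rise of 1.10 ± 0.08. PLAT, the tissue-type activator (chromosome 8, 42175233 to 42207724), had 44.2, 40.8 and 44.7 CPM in the palbociclib 9 h libraries, 44.3, 37.6 and 39.98 CPM in the DMSO 9 h libraries and 142, 155 and 147 CPM in the DMSO 6 h libraries, a log2 difference of −1.78 ± 0.11. For neither did drug and vehicle differ by the test at 9 h (adjusted p = 0.975 and 0.825). LOXL2, which crosslinks collagen, rose by 1.10 ± 0.10 and COL7A1, the anchoring fibril collagen, fell by 0.70 ± 0.08.

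The laminin and integrin genes named here rose while the junction genes named here fell. LAMA3, a laminin alpha chain of the basement membrane, rose by 0.48 ± 0.06 to 1744 ± 142 CPM, against 1247 ± 56 CPM with DMSO at 6 h, and the receptor subunit ITGA6 by 0.49 ± 0.05. ITGB6, a subunit of a TGF-beta activating integrin, rose by 0.84 ± 0.09. GJB2, the gap junction gene of connexin 26, had 133, 113 and 126 CPM in the palbociclib 9 h libraries, 140.5, 121 and 123 CPM in the DMSO 9 h libraries and 340.3, 362 and 335 CPM in the DMSO 6 h libraries, a log2 difference of −1.48 ± 0.08 (adjusted p = 1.04e-14). The tight junction gene CLDN1 fell by 1.00 ± 0.07, desmosomal DSC3 by 0.79 ± 0.06 and E-cadherin (CDH1) by 0.61 ± 0.06. Among mesenchymal markers 4 of 10 were higher, 1 was lower and 5 were not called. The lower one was DCN (1139 summed counts with palbociclib at 9 h against 1360 with DMSO at 6 h). That call was lost with exon length trends removed, without DMSO 6 h replicate 1 or without the 5 libraries. Those not called included members with fewer summed counts (CDH2, 340 against 378, and TWIST1, 509 against 539) or more (ZEB1, 588 against 483, and COL1A1, 864 against 801). ZEB1 was called higher without palbociclib 9 h replicate 1. ZEB2 and SNAI2, repressors of E-cadherin, rose by 0.87 ± 0.09 and 0.59 ± 0.08, and FN1 (fibronectin) by 0.34 ± 0.06. VIM (vimentin) rose by 0.18 ± 0.05 (adjusted p = 0.00959), a call lost with no filter, without palbociclib 9 h replicate 3 and without the 5 libraries.

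Keratin genes, basal ones included, moved in both directions. Basal breast markers had 5 of 11 higher (45.5%, against 19.8% over all genes) and 4 lower (36.4%, against 18.3%). KRT15, a basal keratin, had 229, 238 and 247 CPM in the palbociclib 9 h libraries, 212, 210.3 and 198 CPM in the DMSO 9 h libraries and 524, 598 and 524 CPM in the DMSO 6 h libraries, a log2 difference of −1.21 ± 0.08, and KRT17 fell by 0.24 ± 0.06. KRT14 rose by 0.50 ± 0.08, and KRT5 (−0.10 ± 0.06) and KRT6A (0.16 ± 0.07) had no call, though KRT5 gained a call as lower in 4 and KRT6A as higher in 5 of the 16 alternatives. Of 7 tested luminal markers 0 were higher (0 also at an unadjusted p below 0.05, and by DESeq2) and 1 was lower, MUC1 (−0.49 ± 0.09), and KRT8 (−0.08 ± 0.05) and KRT18 (0.04 ± 0.05) had no call, though KRT8 was called lower with the block and exon length trends removed. Keratin genes such as KRT6A, KRT14 and KRT17 have near-identical copies, so their counts are uncertain. Squamous differentiation genes had 1 of 19 higher (5.3%, against 19.8% over all genes) and 4 lower (21.1%, near the 18.3% over all genes), and the 1 was 0 in most alternatives. TGM1, the crosslinking enzyme of the cornified envelope, fell to 49.7, 42.1 and 47.5 CPM in the palbociclib 9 h libraries, against 115, 119.5 and 127 CPM in the DMSO 6 h libraries (−1.38 ± 0.09), and FLG (filaggrin) fell by 1.72 ± 0.36 to 0.898 ± 0.52 CPM, against 2.91 ± 0.82 CPM with DMSO at 6 h.

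Cytoskeletal genes also split, tubulins rising and actin-binding genes falling among the members named here. The list had 9 of 33 higher and 9 lower (27.3% each way, against 19.8% and 18.3% over all genes), and 14 higher with the library axis as a covariate. TUBA1A, TUBA4A and TUBB rose by 1.15 ± 0.12, 1.02 ± 0.08 and 0.50 ± 0.06. The focal adhesion genes VCL (vinculin) and ZYX (zyxin) fell by 0.85 ± 0.06 and 0.75 ± 0.06. Tubulin genes and HNRNPA1 share near-identical stretches with other copies, which makes their counts uncertain. Splicing regulators had 7 of 27 higher (25.9%) and 6 lower (22.2%), near the shares over all genes. HNRNPA2B1 and HNRNPA1 rose by 0.74 ± 0.08 and 0.58 ± 0.07, and SRSF7, an SR protein gene, fell by 0.71 ± 0.09. Glucocorticoid and cAMP response genes, whose inducers hydrocortisone and cholera toxin were in the medium of both groups, had 5 of 19 higher (26.3%) and 4 lower (21.1%), also near those shares. The 4 were 2 without palbociclib 9 h replicate 1. The glucocorticoid receptor gene NR3C1 rose by 0.59 ± 0.06 and its target FKBP5 by 0.23 ± 0.06.

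Nuclear pore and transport genes had 12 of 32 higher (37.5%, against 19.8% over all genes), 11 to 13 under the alternatives. They had 3 lower (9.4%, against 18.3% over all genes), at a median of 0.11. The 3 were 5 with the library axis or with the block and exon length trends removed. Lysosome and autophagy genes had 9 of 30 higher and 6 lower, the 9 being 5 with no filter and 3 without DMSO 6 h replicate 3 or the 5 libraries. NRF2 targets and pentose phosphate enzymes, which supply and use reducing power, had 5 of 20 higher and 7 lower, the 5 being 2 without palbociclib 9 h replicate 3, DMSO 6 h replicate 3 or the 5 libraries. Of 3 tested blood and endothelial markers, too few to set against those shares, 1 was lower. That call was lost without palbociclib 9 h replicate 3, DMSO 6 h replicate 2 or the 5 libraries.

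The largest rises among genes of at least 1 in mean log2 CPM whose libraries did not overlap included several cell surface and secreted proteins. CDH4, the gene of R-cadherin (chromosome 20, 61252426 to 61940617), had 59.6, 66.5 and 64.6 CPM in the palbociclib 9 h libraries, 53.4, 54.6 and 55.4 CPM in the DMSO 9 h libraries and 5.76, 7.17 and 5.25 CPM in the DMSO 6 h libraries. Its log2 difference of 3.36 ± 0.11 (adjusted p = 1.73e-20) was the largest of these rises, and its value against DMSO at 9 h was 0.23 ± 0.08 (adjusted p = 0.289). IGFBP3, which binds insulin-like growth factors (chromosome 7, 45912245 to 45921874), had 179, 208 and 197 CPM in the palbociclib 9 h libraries, 167, 216 and 169.7 CPM in the DMSO 9 h libraries and 41.3, 36.7 and 39.7 CPM in the DMSO 6 h libraries (2.32 ± 0.10). Both genes were several times more abundant at 9 h than at 6 h whichever agent was present. PCED1B rose by 3.04 ± 0.22, SLITRK6, a membrane protein known from neurons, by 2.17 ± 0.14 and KANK4, of a family that links adhesions to microtubules, by 2.17 ± 0.13. SCG5, a chaperone of a prohormone convertase, rose by 1.95 ± 0.16, and ADAM12, a metalloprotease, by 1.60 ± 0.16. TENM4, a teneurin, PTPRZ1, a receptor tyrosine phosphatase, and VAV3, an exchange factor for small GTPases, rose by 1.52 ± 0.17, 1.46 ± 0.11 and 1.70 ± 0.24. MBNL2, a splicing regulator, rose by 1.48 ± 0.11 and ENKUR by 1.91 ± 0.20. ADCY7, an adenylyl cyclase with 41.6% of its exonic bases shared with an opposite-strand gene, was among the rises with the smallest p (1.15 ± 0.06, adjusted p = 1.23e-14).

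**Figure D4:**
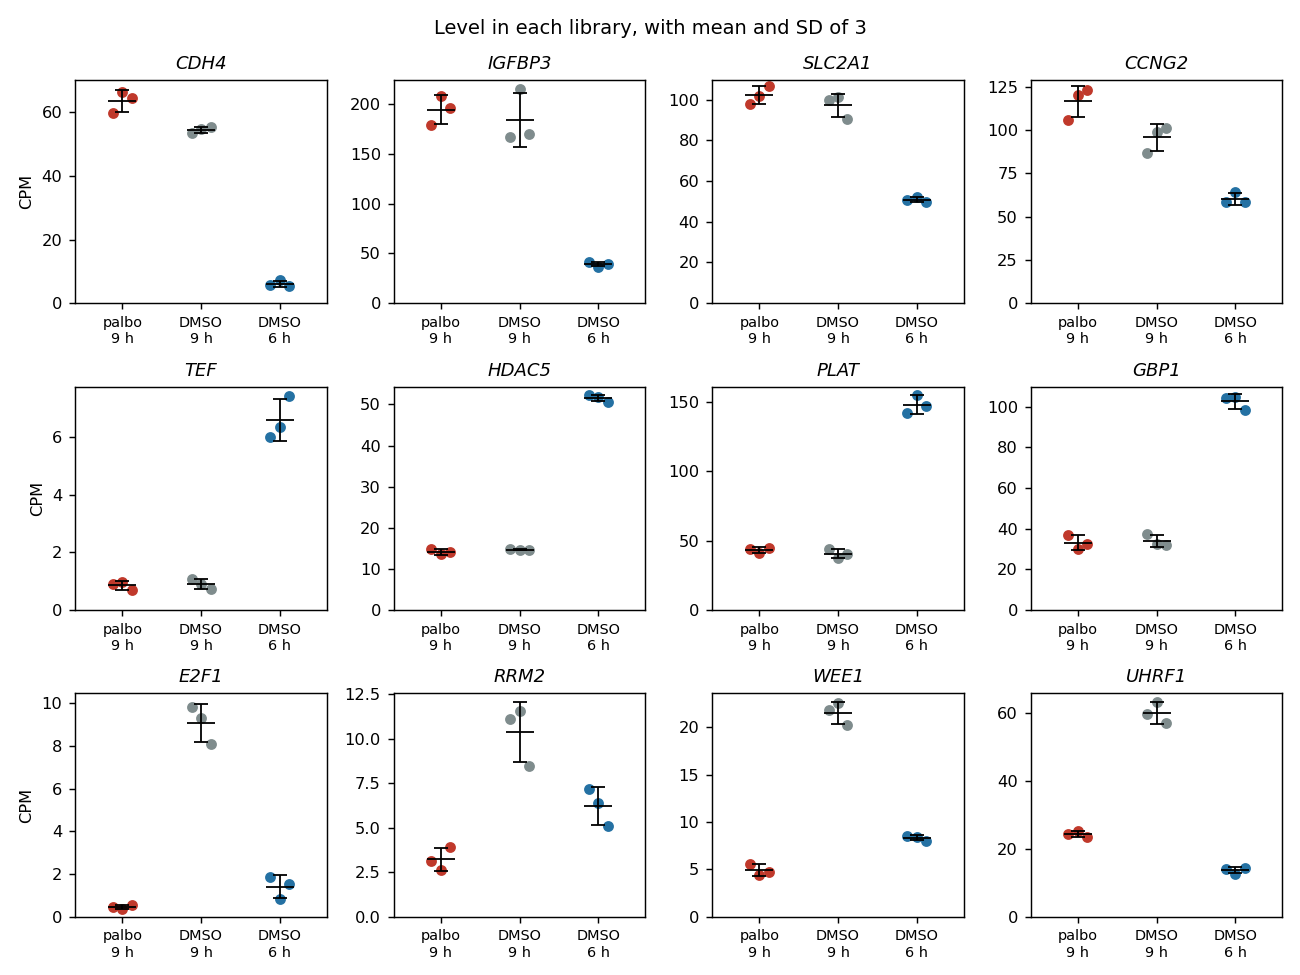
CPM of 12 genes in each of the 3 palbociclib 9 h, 3 DMSO 9 h and 3 DMSO 6 h libraries (points), with the mean and SD of 3 (black bars). In the top and middle rows both 9 h groups lie on the same side of DMSO 6 h, and in the bottom row the 3 drug libraries lie below the 3 DMSO 9 h libraries, below DMSO 6 h as well for E2F1, RRM2 and WEE1 and above it for UHRF1.

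Among the largest falls were several enzymes of metabolism. ACSS1, the mitochondrial acetyl-CoA synthetase, had 1.57, 1.09 and 1.16 CPM in the palbociclib 9 h libraries, 1.67, 1.72 and 1.34 CPM in the DMSO 9 h libraries and 11.8, 10.7 and 10.9 CPM in the DMSO 6 h libraries (−3.14 ± 0.21, adjusted p = 8.36e-13). ADH1B, an alcohol dehydrogenase, fell by 2.77 ± 0.14 to 3.05 ± 0.62 CPM, against 21.4 ± 2.5 CPM with DMSO at 6 h, though near-identical ADH1 copies make its count uncertain. BBOX1, of carnitine synthesis, fell by 2.06 ± 0.25 and ACSL1, which activates long-chain fatty acids, by 1.34 ± 0.06. HDAC5, a class IIa histone deacetylase (chromosome 17, 44076746 to 44123702), had 14.9, 13.5 and 14.1 CPM in the palbociclib 9 h libraries, 14.8, 14.5 and 14.7 CPM in the DMSO 9 h libraries and 52.3, 51.8 and 50.6 CPM in the DMSO 6 h libraries. Its log2 difference of −1.87 ± 0.07 had the smallest adjusted p of all the falls (7.52e-19), and the 9 h groups overlapped. CYBRD1, an iron reductase, fell by 1.43 ± 0.07. METTL7A fell by 2.17 ± 0.10, GREB1, known as an oestrogen-regulated gene, by 2.25 ± 0.26 and GALNT15, a glycosyltransferase, by 2.04 ± 0.11. The oestrogen receptor gene ESR1 held 11 counts in the palbociclib 9 h group and 8 in the DMSO 6 h group.

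Host transcripts of the miR-29 family, microRNAs known for targeting collagen and other matrix mRNAs, were among the large falls. The locus named MIR29A in the annotation (chr7:130876747-130913310) holds the MIR29A and MIR29B1 hairpins, and C1orf132 (chr1:207801518-207879096) holds MIR29B2 and MIR29C. The mature RNAs of both loci, from RefSeq on GRCh38.p14, share 1 seed (bases 2 to 8, in capitals), and for that reason they are shown together.
hsa-miR-29a-3p: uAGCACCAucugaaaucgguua
hsa-miR-29b-3p: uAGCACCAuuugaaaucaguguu
hsa-miR-29c-3p: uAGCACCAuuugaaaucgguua

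At the MIR29A locus the palbociclib 9 h libraries had 18.4, 17.7 and 20.2 CPM, the DMSO 9 h libraries 17.1, 15.2 and 22.6 CPM and the DMSO 6 h libraries 66.9, 49.7 and 80.7 CPM, a log2 difference of −1.80 ± 0.24 (adjusted p = 5.92e-07). C1orf132 had 7.85, 6.00 and 6.01 CPM in the palbociclib 9 h libraries, 8.72, 7.35 and 12.9 CPM in the DMSO 9 h libraries and 29.0, 22.5 and 40.1 CPM in the DMSO 6 h libraries (−2.20 ± 0.30). At both loci all drug libraries were below all DMSO 6 h libraries. These are reads of long poly(A) transcripts, and mature microRNA levels were not measured.

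The whole time course was compared for 8 of the genes above. With palbociclib, CDH4 averaged 63.6 ± 3.5 CPM at 9 h and 37.6 ± 5.3 CPM at 24 h, and with DMSO 54.5 ± 1.1 CPM at 9 h and 37.1 ± 0.35 CPM at 24 h, after 1.39 ± 0.31 CPM in starved cells. HDAC5 averaged 183 ± 1.6 CPM in starved cells, and 4.99 ± 0.22 CPM with palbociclib and 5.76 ± 0.71 CPM with DMSO at 12 h. WEE1 averaged 4.92 ± 0.61 CPM at 9 h and 7.36 ± 1.4 CPM at 24 h with palbociclib, and with DMSO 21.5 ± 1.1 CPM at 9 h and 61.8 ± 4.5 CPM at 24 h, after 40.2 ± 1.1 CPM in starved cells. FAM111B averaged 0.08 ± 0.071 CPM at 9 h, 0.151 ± 0.080 CPM at 15 h and 1.99 ± 0.39 CPM at 24 h with palbociclib, and with DMSO 20.8 ± 3.1, 146 ± 12 and 80.3 ± 4.0 CPM at those times. Its palbociclib 24 h mean was above the 0.94 ± 0.35 CPM of DMSO at 6 h. The curves of CDH4, IGFBP3, SLC2A1, LAMA3, TEF and HDAC5 for drug and vehicle lie close together, and those of FAM111B and WEE1 lie apart.

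**Figure D5:**
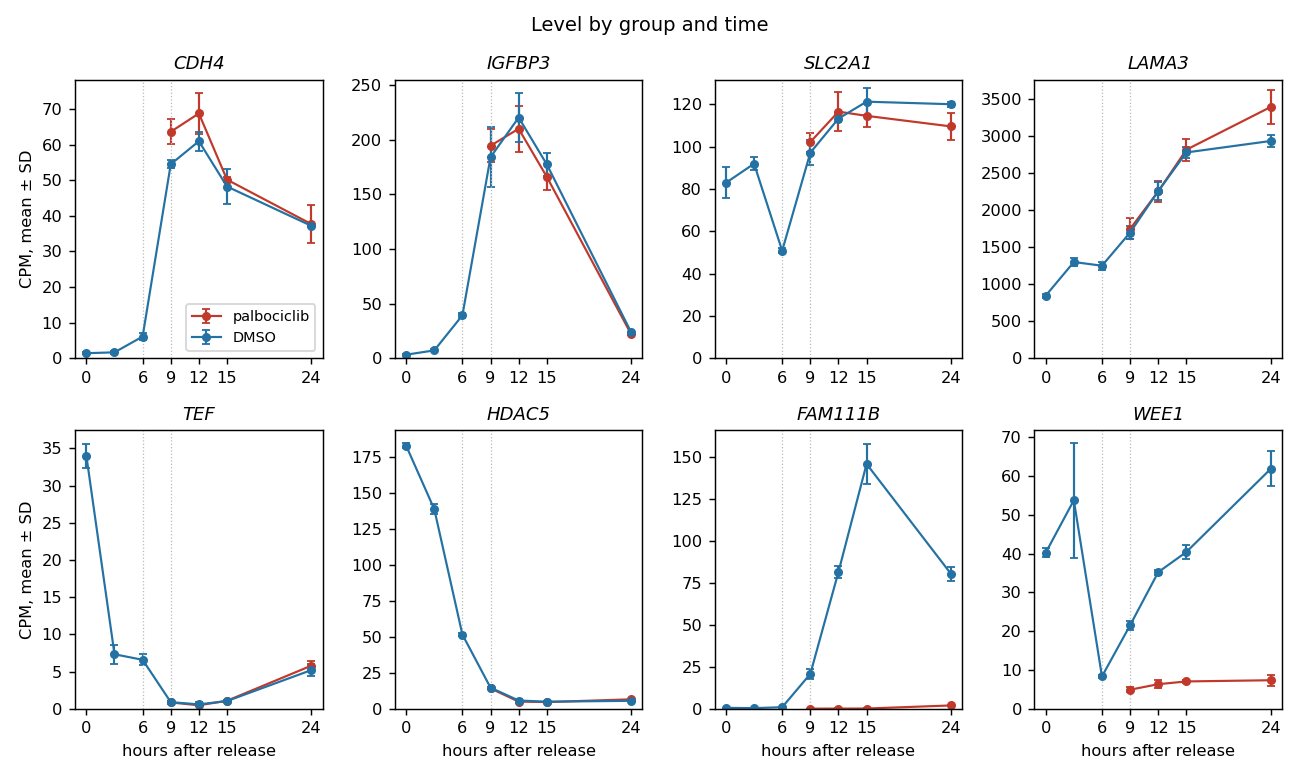
Mean CPM ± SD by hours after release for 8 genes, palbociclib in red (9 to 24 h) and DMSO in blue (0 h is the starved start), with 3 libraries per point and 2 at 24 h, and dotted lines at 6 and 9 h. Red and blue meet or nearly meet at 9 h for the first 6 genes, and for FAM111B and WEE1 the red line stays far below the blue one from 9 to 24 h.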

How the data were processed

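Poly(A) RNA was measured with a stranded kit as 75 nt single reads, per the labels' protocols. The deposited values are raw counts per gene name, made by the authors with featureCounts 1.5.1, per the file headers, from exons of GENCODE 25 and without a strand setting. The genome build was GRCh38.p7, and the tools listed were TopHat2 2.1.1, Bowtie2 2.2.9, FastQC 0.11.3 and Subread 1.5.1, per the submitters' processing notes. Multi-mapping reads were not counted, so genes with near-identical copies lose reads, genes that overlap on opposite strands cannot be told apart, and 178 names cover more than 1 chromosome. Of 56269 gene names 34335 had a count and 15787 passed filterByExpr by group. A deposited table of the whole series was not used.

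Counts were fitted in edgeR 4.0.16 (R 4.3.3, limma 3.58.1) with TMM factors of 0.9273 to 1.081, 1 quasi-likelihood fit of 31 libraries in 11 groups and 20 residual degrees of freedom. Adjusted p-values are Benjamini-Hochberg over all 15787 genes, and calls have an adjusted p below 0.05. The common biological coefficient of variation was 6.55%. Each SE is the size of the log2 difference divided by the root of its F statistic. Replicates differed beyond sampling noise (chi-square per degree of freedom 6.5 with palbociclib at 9 h, 7.33 with DMSO at 9 h and 9.28 with DMSO at 6 h). Intervals of summed counts are exact Poisson at 95% and cover counting error only. The fit was tested on simulated data for palbociclib 9 h against DMSO 6 h over 15787 genes, and it recovered 85.1% of 67 genes changed 1.5-fold, 86.6% of 67 changed 2-fold and 100% of 66 changed 4-fold, with 8 false calls. The changed genes were drawn only from those above a floor of mean CPM, so recovery of genes with less RNA was not tested. They were also far fewer than the genes called in the real comparison.

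The gene lists and the rule for named genes were chosen with earlier results of these data known. There are 42 lists, and 25 genes are in more than 1. The rule takes 21 cell cycle and signalling genes whatever their values, the 15 largest changes each way without overlap of libraries and at least 1 in mean log2 CPM, up to 4 called members of each list each way in order of p, all members of lists with 13 or fewer tested, and the 4 smallest p each way. It selected 354 genes, and the text gives 194 of them, picked after their values were seen. Some of the others are not reported here. Mitochondrial, Y-linked and X-inactivation genes were not named. Alternatives were DESeq2 1.42.0 (its size factors and its test), library totals, no filter, a fit of the compared groups alone, a replicate block, exon length trends, the main within-group axis as a covariate, and leaving out libraries.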

Additional observations from a re-analysis of the deposited data

Results flagged for a closer look

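For 19 of the genes named above, the step from DMSO at 6 h differed between palbociclib at 9 h and DMSO at 9 h by the edgeR test of that difference, which is the contrast of both 9 h groups (3 libraries each, adjusted over 15787 genes). Each value is a log2 difference, palbociclib 9 h over DMSO 9 h, and the causes were not tested. Alternatives were followed gene by gene only for palbociclib 9 h against DMSO 6 h. How far each of these 19 calls depends on the fit is therefore not known. Of genes of DNA replication and S phase entry, FAM111B stood at −7.82, E2F1 at −4.34, CDC6 at −4.27 and CCNE2 at −3.09. RRM2 stood at −1.72, MCM2 at −1.68, UHRF1 at −1.30, CCNE1 at −1.29 and RBL1 at −1.09, while MCM6 (−0.73), E2F7 (−0.71), SKP2 (−0.29) and DNMT1 (−0.26) differed by less. Of genes of mitosis and its control, WEE1 stood at −2.15, NUSAP1 at −1.04, KIF20B at −0.43 and SMC4 at −0.43. HERPUD1 at 0.33 and CCNG2 at 0.28 were the 2 of these genes that were higher with the drug. For E2F1, FAM111B, RRM2 and WEE1 both steps passed the test in opposite directions, lower than DMSO at 6 h with palbociclib and higher with DMSO.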

How the results depend on the processing

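The counts of genes higher and lower at 9 h with palbociclib than at 6 h with DMSO stayed within 1.5 times the reported 3126 and 2892 under all 16 alternatives run, at 2390 to 3604 higher and 2291 to 3665 lower, and so did those of DMSO at 9 h against 6 h. Leaving out 1 library at a time gave 2546 to 3051 higher and 2291 to 2713 lower. Palbociclib against DMSO at 9 h depended more on the fit. Its 18 genes higher were 11 in a fit of the 6 libraries alone, 62 with the replicate number as a block, 117 with that block and exon length trends removed, 41 with exon length trends removed, 109 with the main within-group axis as a covariate, and 6 without replicate 3 of the palbociclib groups and of DMSO 24 h. Without 1 library at a time they were 9 to 29, the 29 without palbociclib 9 h replicate 1 and the 9 without DMSO 9 h replicate 1. Its 170 genes lower were 275 with no filter on low counts and 319 with the axis, and 133 to 151 without 1 library at a time. With the replicate block, 3431 genes were higher and 3138 lower in the main comparison, and 192 lower between the 9 h groups. Same-numbered palbociclib 9 h and DMSO 6 h libraries deviated from their group means with correlations of 0.16, 0.112 and −0.165 over genes, so the numbers were not taken to pair them. Palbociclib 9 h replicate 3 and DMSO 6 h replicate 2 gave 0.238. Between DMSO 9 h and DMSO 6 h the same-numbered values were 0.00243, 0.313 and 0.289, and those across replicates 2 and 3 were −0.247 and −0.342. Whether the numbers mark a batch was not tested. Of 354 genes the naming rule selected, 320 were called and 271 of these were called in all 16 alternatives, 8 of those not called gained a call in at least 1, and no called direction reversed. Genes with few counts, such as FAM111B and E2F1, are limited by depth.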
